A study of Homo sapiens with 28 samples.

Results

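The comparison set HepG2 cells exposed to TCDD directly against HepG2 cells exposed to bisphenol A (BPA), with no vehicle in the contrast, and covered all genes in the 4 TCDD and 4 BPA libraries of a series of 28. HepG2 is an established human hepatoma line with hepatocyte features, used here at 17 passages or fewer. The cells went without serum for 24 h and were then exposed for 24 h to 100 nM TCDD or to 75 µM BPA, both carried in DMSO at no more than 0.1%. The remaining groups, also of 4 libraries each, received DMSO or water alone, cadmium chloride, PFOS or tributyltin chloride. They entered the gene filter, the scaling and the estimate of spread, but not the contrast. The level in the 4 DMSO libraries is printed beside many of the results as the vehicle shared by both toxicants. Every library came from this single line, so the spread is between experiments on the same cells and not between people. The concentrations differed, so a difference between the compounds and a difference between these doses cannot be told apart.

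TCDD is a chlorinated dioxin and a tightly binding ligand of the aryl hydrocarbon receptor (AHR), a transcription factor that moves to the nucleus, pairs with ARNT and switches on CYP1 enzymes and other xenobiotic-metabolising genes. BPA is a monomer of polycarbonate plastics known for weak binding to estrogen receptors. In hepatocytes, NRF2 is the factor that turns on glutathione and NADPH genes after oxidants or electrophiles, ATF4 and CHOP (DDIT3) drive the integrated stress response when translation initiation factor eIF2 is phosphorylated, and E2F and DREAM-type complexes set the level of replication and mitosis genes.

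CYP1A1, the enzyme gene most used as a readout of AHR activity, served as a check of the labels, because the series text records an exchange of TCDD and PFOS labels. Its level was 2841, 6410, 4959 and 4243 CPM (counts per 1e6 counts of a library, scaled by TMM) in TCDD replicates 1 to 4, and 293, 462, 159 and 53.5 CPM in BPA replicates 1 to 4. All TCDD libraries lay above all BPA libraries, and the BPA libraries lay above the DMSO level of 8.37 ± 6.54 CPM (mean ± SD, n = 4, as for every mean below). The fitted log2 fold change of TCDD over BPA was 4.25 ± 0.92 (± SE, as below), with an adjusted p of 0.000703 in edgeR's quasi-likelihood test with Benjamini-Hochberg adjustment over all tested genes, which gives every adjusted p below. A gene is called where that adjusted p is under 0.05, and log2 fold changes are TCDD over BPA, so that a positive value is higher in TCDD.

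Of 18849 genes with enough counts to test, 7218 were called, which is 38.3%. They comprised 3854 higher in TCDD (20.4%) and 3364 lower in TCDD (17.8%). The 4 TCDD and the 4 BPA libraries did not overlap for 7573 genes (40.2%). The split depends on scaling, since 53.4% of the calls were higher in TCDD with TMM, against 66.6% with upper-quartile scaling, which shifted the median over all genes by 0.122 on the log2 scale, and 63.5% with library size alone. The sizes were unequal in the 2 directions. Among called genes higher in TCDD the median fold was 2.23, and among those lower it was 1.6. At 2-fold or more, 2293 genes were higher in TCDD (12.2%) and 885 lower (4.7%). At 16-fold or more, 122 were higher and 11 lower. The higher genes were also the less abundant, with a median TCDD mean of 3.69 CPM against 23.0 CPM for the lower genes. Among the 8 libraries the first principal component held 64.1% of the variance and separated the toxicants, with TCDD from -64.2 to -56.0 and BPA from 51.4 to 68.7.

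**Figure D1:**
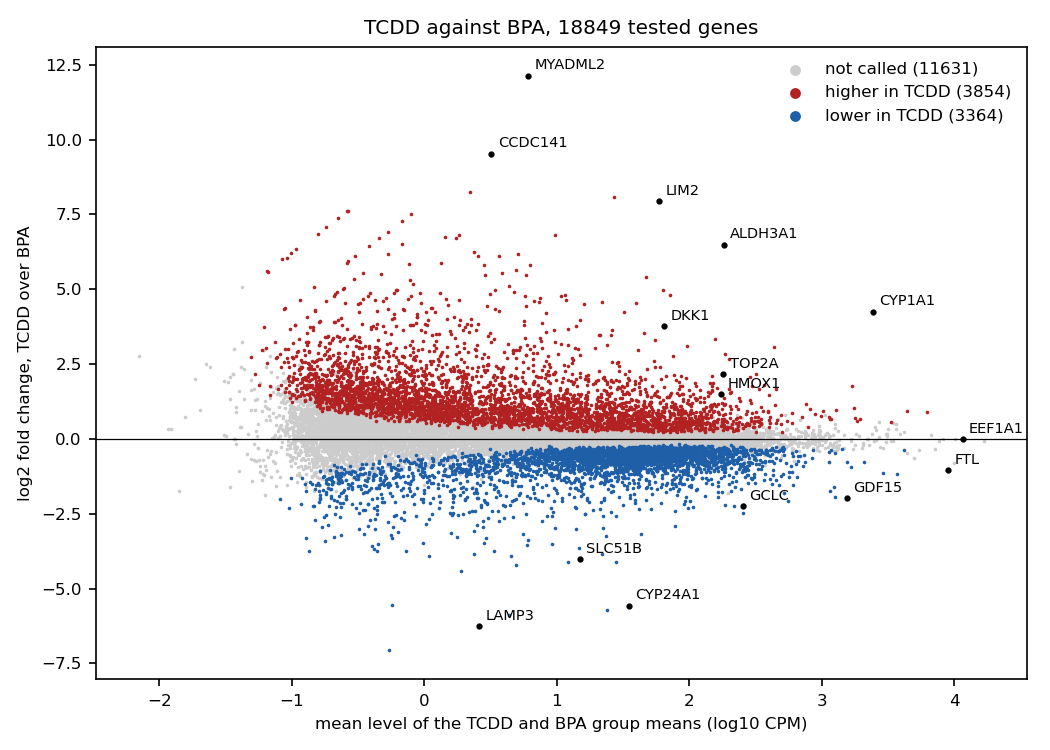
Fitted log2 fold change of TCDD over BPA (vertical axis) against the mean of the TCDD and BPA group means (horizontal axis, log10 CPM) for each tested gene, coloured by call, with named genes marked. Among called genes, 3854 lie above and 3364 below 0, and the points far from 0 are more numerous above it.

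The libraries held 32.3 to 65.2 M counts (M, units of 1e6) in TCDD and BPA, and the level worth 3 counts ran from 0.046 to 0.0929 CPM across them. Genes at 1 CPM or more numbered 13591 to 13727 in TCDD, 12831 to 13077 in BPA and 13494 to 13612 in DMSO. Genes annotated as antisense took 0.356 to 0.470% of the counts in TCDD, 0.279 to 0.335% in BPA and 0.386 to 0.423% in DMSO. The library kit marks strand, but how the authors' counting used strand is unstated (not given in the sources used here). Reads of a gene and its antisense partner may therefore not be separable. The mitochondrial share overlapped, at 5.74 to 7.02% in TCDD and 4.50 to 7.57% in BPA. Their part in the results was not tested.

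**Figure D2:**
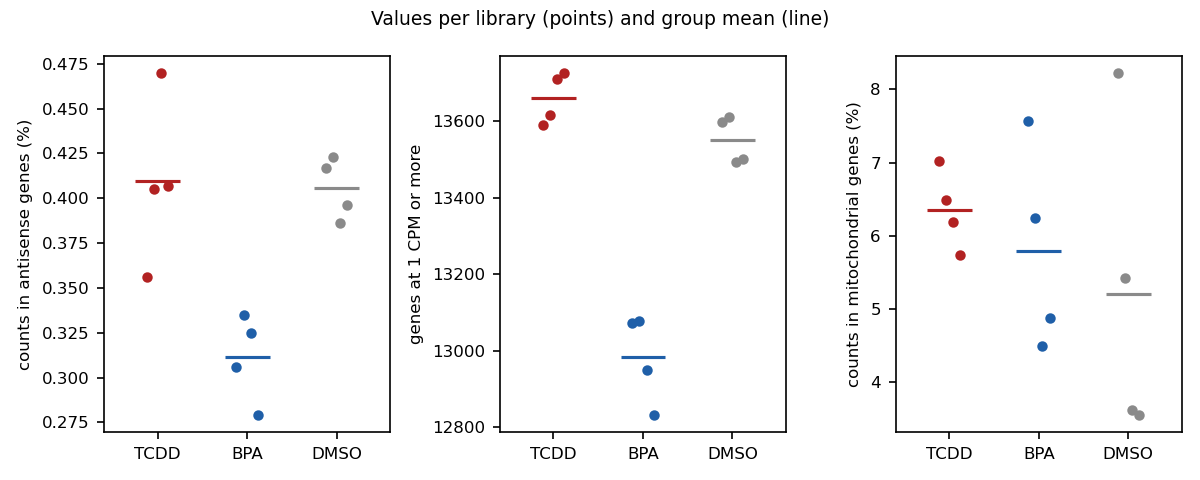
Share of counts in antisense genes, number of genes at 1 CPM or more, and share of counts in mitochondrial genes, with 1 point per library and a line at each group mean of 4 libraries. The axes do not start at 0. The TCDD and BPA libraries do not overlap in the left and middle panels (0.356 to 0.470% against 0.279 to 0.335%, and 13591 to 13727 against 12831 to 13077 genes) and overlap in the right panel.

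Hepatocyte-type markers overlapped between the groups. The summed level of 6 hepatocyte-type markers (AFP, ALB, APOA1, HNF4A, SERPINA1 and TTR) ran from 21800 to 40160 CPM in TCDD and from 16460 to 30360 CPM in BPA. AFP, the fetal albumin homologue, was the member called (8173 ± 3101 against 4347 ± 1789 CPM, higher in TCDD, adjusted p 0.044). The 8 tested markers of endothelial, stellate, fibroblast and myeloid cells summed to 47.0 to 57.4 CPM in TCDD and 50.9 to 70.2 CPM in BPA. PTPRC, CD68 and COL3A1 held at most 12 counts in any library of either group. CD14, the lipopolysaccharide co-receptor, was the marker lower in TCDD (0.924 ± 0.163 against 10.9 ± 5.35 CPM, DMSO 1.45, log2 fold change -3.56 ± 0.29, adjusted p 9.22e-10). LUM, a matrix proteoglycan, was higher (1.01 ± 0.349 against 0.0454 ± 0.056 CPM, adjusted p 8.24e-06). PECAM1, an endothelial adhesion gene, was also higher (3.98 ± 0.904 against 2.61 ± 0.263 CPM, adjusted p 0.00647), but not without TCDD replicate 1 (adjusted p 0.0506).

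Of the 14 genes listed as AHR targets, 8 were higher in TCDD (57.1%), CYP1A1 included, and 2 were lower (14.3%). All tested genes gave 20.4% and 17.8%. The list median was 1.79 against 0.0543 over all tested genes. Against DMSO the list's median was 2 for TCDD and 1.04 for BPA, so it lay above the vehicle in both. ALDH3A1, an aldehyde dehydrogenase of the AHR gene battery (chr17:19737984-19748943 on GRCh38, minus strand), read 533, 413, 241 and 259 CPM in TCDD and 6.59, 7.17, 1.32 and 0.867 CPM in BPA. The DMSO libraries stood at 3.43 ± 1.9 CPM, within the range of the BPA libraries, and the TCDD libraries lay far above both (log2 fold change 6.49 ± 0.83, adjusted p 9.76e-07). CYP1B1, a further CYP1 monooxygenase, was at 6.45, 6.06, 5.42 and 4.08 CPM in TCDD and 0.111, 0.207, 0.0662 and 0 CPM in BPA (log2 fold change 5.80 ± 0.51, adjusted p 2.90e-09). CYP1A2 was at 8.32, 23.5, 11.0 and 8.52 CPM against 0.377, 0.758, 0.795 and 0.227 CPM, again without overlap, and its DMSO mean was 0.0599 CPM, below the BPA mean of 0.539 CPM (log2 fold change 4.60 ± 0.55, adjusted p 3.61e-07). AHRR, the repressor that AHR induces against itself, was at 1.77, 2.07, 2 and 1.98 CPM in TCDD and 0.0887, 0.207, 0.0331 and 0.062 CPM in BPA (log2 fold change 4.24 ± 0.43, adjusted p 2.93e-08). The TCDD libraries were the high ones for each of these enzymes and for the repressor.

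The other called AHR targets were more uneven. As further examples, NEDD9, a scaffold protein of focal adhesions, averaged 517 ± 38.6 CPM in TCDD, 116 ± 57.2 CPM in BPA and 191 CPM in DMSO, so the vehicle lay between them (log2 fold change 2.16 ± 0.32, adjusted p 7.38e-06). SLC7A5, the large neutral amino acid transporter, was at 2376 ± 343 against 1484 ± 97.4 CPM with DMSO at 660.3 CPM, so both toxicants lay above the vehicle (log2 fold change 0.68 ± 0.19, adjusted p 0.00602). CYP2S1, a cytochrome P450 listed with the AHR targets, went the other way, at 4.44, 6.01, 8.52 and 6.94 CPM in TCDD and 42.1, 32.9, 37.7 and 40.9 CPM in BPA (log2 fold change -2.57 ± 0.32, adjusted p 6.66e-07). EREG, an EGF-receptor ligand, was also lower in TCDD (0.639 ± 0.404 against 4.9 ± 4.2 CPM, DMSO 0.659, adjusted p 0.0022), with libraries that overlapped. TIPARP, a poly-ADP-ribosyltransferase induced by AHR, did not separate the groups, at 20.3 ± 4.87 CPM in TCDD and 19.8 ± 2.03 CPM in BPA (log2 fold change 0.04 ± 0.17, 95% interval -0.31 to 0.39, adjusted p 0.874). NQO1, a quinone reductase that AHR and NRF2 both induce, was at 1470 ± 363 and 1052 ± 203 CPM, both above the DMSO mean of 331 CPM, and was not called (95% interval -0.19 to 1.16, adjusted p 0.252). The receptor itself, AHR, was lower in TCDD, at 22.7, 21.6, 24.7 and 19.8 CPM against 33.8, 33.4, 41.2 and 31.8 CPM, with DMSO at 19.8 CPM (log2 fold change -0.66 ± 0.16, adjusted p 0.00208). None of its 6 listed partners and chaperones was called, among them ARNT (-0.20, 95% interval -0.54 to 0.15).

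The dioxin response element was looked for as TNGCGTG on both strands in promoter windows of 300 bases, from 250 before to 50 after the start, taken from RefSeq on GRCh38.p14. It was in 4 of the 12 AHR targets with a window, against 5.51% of all 27305 windows and 7.13% of the windows of tested genes. Among genes at least 2-fold higher in TCDD the share was 6.15%, below that of all tested genes, and among those at least 2-fold lower 4.43%. AHRR held it 32 bases before its start. The stretch around it (chr5:321654-321713, plus strand, the element in capitals) is shown because AHRR averaged under 0.1 CPM in BPA and in DMSO and was near 2 CPM in TCDD.
AHRR: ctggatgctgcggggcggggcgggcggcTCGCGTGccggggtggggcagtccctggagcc
CYP1A1, CYP1A2, CYP1B1 and ALDH3A1 had no such match in their windows or were without a window, which says only that these letters are not in this stretch.

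By size of difference, the leading genes higher in TCDD were of low level in BPA and in DMSO. The 12 with the largest log2 fold changes were taken among called genes that averaged at least 5 CPM in TCDD or BPA and whose groups did not overlap, a limit that leaves out rarer genes with differences as large. They were MYADML2, CCDC141, PLA2G4F, LIM2, CDX2, ALDH3A1, RIPOR3, SEC14L4, SLC6A19, TTN, CYP1B1 and ALPL. MYADML2 (chr17:81939645-81947233 on GRCh38, minus strand), a MARVEL-domain gene related to the myeloid differentiation marker MYADM, was at 10.6, 16.2, 11.5 and 10.7 CPM in TCDD, and no read was counted for it in any BPA library. Its pooled counts of 2367 against 0 put TCDD at least 702-fold higher against a floor of 3 counts over the BPA group (adjusted p 3.23e-11). It overlaps PYCR1 on the same strand, which averaged 379 ± 47.4 CPM in TCDD and 465 ± 35.3 CPM in BPA. CCDC141, a coiled-coil protein gene, was at 11.8, 4.6, 4.29 and 5.02 CPM in TCDD, and 1 read was counted for it over the BPA libraries (ratio 1100, exact 95% counting interval 196 to 43300, which covers counting error only). It overlaps TTN, the gene of the muscle protein titin, which was itself at 12.3 ± 8.87 CPM in TCDD, 0.212 ± 0.142 CPM in BPA and 0.446 CPM in DMSO (log2 fold change 5.82 ± 0.54, adjusted p 6.87e-09).

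LIM2, which encodes a lens fibre membrane protein, reached 80.5, 165, 116 and 109 CPM in TCDD and stood at 0.333, 0.85, 0.199 and 0.475 CPM in BPA (log2 fold change 7.94 ± 0.60, adjusted p 2.10e-10). PLA2G4F, a cytosolic phospholipase A2, was at 86.4, 60.1, 27.2 and 40.9 CPM against 0.288, 0.345, 0.132 and 0.0207 CPM (log2 fold change 8.07 ± 0.59). CDX2, the intestinal homeobox factor, was at 22.9, 18.4, 16.9 and 18.9 CPM against 0.222, 0.23, 0.132 and 0.0826 CPM (log2 fold change 6.83 ± 0.48). For each of these the DMSO mean was under 1 CPM, so the TCDD libraries stood alone. SLC6A19, the neutral amino acid carrier of gut and kidney brush borders, was at 5.02 ± 1.14 CPM against 0.067 ± 0.052 CPM. ALPL, tissue-nonspecific alkaline phosphatase, was at 9.63 ± 5.4 CPM against 0.187 ± 0.197 CPM, and SEC14L4, a SEC14-like lipid-binding protein, at 7.25 ± 4.53 against 0.102 ± 0.0882 CPM. RIPOR3 was at 27.8, 4.63, 3.28 and 4.74 CPM in TCDD, so that replicate 1 alone was far above the others, and at 0.133 ± 0.0593 CPM in BPA (adjusted p 7.71e-08).

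A wider count, which does not use the DMSO level, leaned to TCDD as well. There were 41 genes under 0.1 CPM in BPA and at 1 CPM or more in TCDD, 31 of them protein-coding. In the opposite state were 4 genes, 3 of them protein-coding. Some of the 41 were low in DMSO too, and others were not. ANXA13 averaged 1.61 CPM in TCDD, 0.0455 CPM in BPA and 1.3 CPM in DMSO, and the DMSO means of GABRR3 and MSMB were 0.719 and 0.651 CPM. Chosen after their values were seen, GSTP1, the pi-class glutathione transferase, averaged 2.82 ± 0.561 CPM in TCDD, 0.0226 ± 0.0261 CPM in BPA and 0.0268 CPM in DMSO (log2 fold change 6.74 ± 0.52, adjusted p 3.51e-10). CASQ2, the calcium-binding protein of cardiac sarcoplasmic reticulum, was at 4.71 ± 2.65 against 0.0605 ± 0.0217 CPM. TNNT3, fast skeletal troponin T, had 248 counts in TCDD and 2 in BPA (ratio 110, interval 30.2 to 916). MYH7, the beta-cardiac myosin heavy chain, fell just outside that count with a TCDD mean of 0.934 CPM, and had 179 counts in TCDD and 3 in BPA (ratio 53.1, interval 17.9 to 260). The antisense gene ENSG00000264785, which overlaps ALDH3A1 on the other strand, was at 1.51 ± 0.592 against 0.0224 ± 0.0325 CPM, and its reads may not be separable from those of ALDH3A1.

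Antisense genes as a class were higher in TCDD more often than lower. Of 1699 tested, 572 were higher (33.7%) and 92 lower (5.41%), with a median log2 fold change of 0.61. Long intergenic noncoding genes leaned the same way, with 295 higher and 55 lower of 1008 and a median of 0.459. Both classes kept this lean under upper-quartile scaling (medians 0.731 and 0.58) and library size alone (0.690 and 0.540). For protein-coding genes the lean depended on the scaling, with 2365 higher and 3048 lower of 13414 and a median of -0.0574 with TMM, 3064 higher, 2199 lower and a median of 0.0651 with upper-quartile scaling, and 2798 higher, 2323 lower and a median of 0.0246 with library size alone. The share of counts in antisense genes, given above, is summed from the same counts, so it is not a separate observation of this result.

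The same limits of 5 CPM and no overlap gave the 12 genes with the largest differences lower in TCDD. Among them (LAMP3, P2RX1, KLHDC7B, CYP24A1, SLC22A15, HAL, NAGS, SLC51B, BEX2, METRNL, LINC01564 and OSCAR), the vehicle mostly stood near TCDD. KLHDC7B (chr22:50545891-50551023 on GRCh38, plus strand), a kelch-domain protein gene, was at 0.378, 0.567, 1.01 and 1.72 CPM in TCDD and 46.8, 75.3, 39.6 and 25.9 CPM in BPA, with DMSO at 0.909 ± 0.469 CPM (log2 fold change -5.70 ± 0.42, adjusted p 1.35e-10). CYP24A1 (chr20:54153449-54173973 on GRCh38, minus strand), the 24-hydroxylase that inactivates vitamin D, was at 1.05, 0.389, 2.32 and 2.12 CPM against 125, 51.3, 21.7 and 74.0 CPM, with DMSO at 2.18 CPM (log2 fold change -5.57 ± 0.82, adjusted p 6.82e-06). LAMP3, a lysosome-associated membrane protein, was at 0.119, 0.0162, 0.0596 and 0.0708 CPM against 4.77, 10.8, 2.88 and 1.96 CPM (log2 fold change -6.25 ± 0.58, adjusted p 6.99e-09). The BPA libraries were the high ones for all of these. SLC51B, the beta subunit of the basolateral bile acid exporter, was at 1.77 ± 0.513 CPM against 28.3 ± 6.56 CPM, and NAGS, which makes the activator of the first urea cycle enzyme, at 3.06 ± 0.747 against 52.9 ± 6.23 CPM. METRNL, a secreted protein, was at 2.85 ± 0.655 against 40.9 ± 17.1 CPM. P2RX1, an ATP-gated channel, was at 0.141 ± 0.118 against 8.59 ± 1.94 CPM, and SLC22A15, a member of the organic cation transporter family, at 0.501 ± 0.143 against 9.3 ± 2.77 CPM. HAL, histidine ammonia-lyase, was the exception to that position, at 0.418, 2.3, 1.43 and 1.06 CPM in TCDD, 9.96, 6.99, 33.2 and 41.2 CPM in BPA and 18.1 CPM in DMSO, so that here the vehicle lay near BPA (log2 fold change -4.11 ± 0.91, adjusted p 0.000874).

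**Figure D3:**
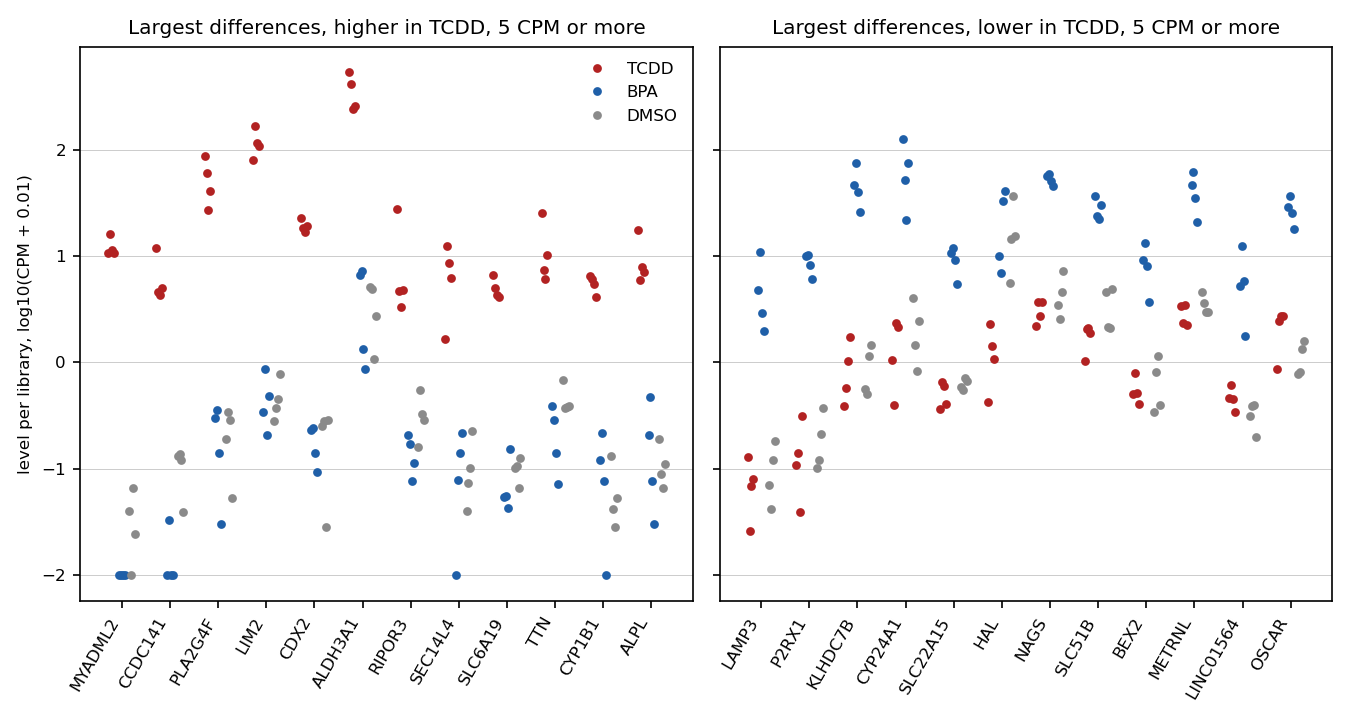
Level per library, as log10(CPM + 0.01), of the 12 genes with the largest log2 fold change in each direction among called genes that averaged at least 5 CPM in TCDD or BPA and whose groups did not overlap, with 1 point per library for TCDD, BPA and DMSO. In the left panel the TCDD libraries stand above BPA and DMSO for every gene, and in the right panel the BPA libraries stand above TCDD for every gene, with DMSO near BPA for HAL.

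The stress programmes lay on the BPA side. Of 24 tested genes of the integrated stress response, 22 were lower in TCDD (91.7%) and 0 higher, with a median log2 fold change of -1.19. For this list and those below, the shares of all tested genes were 17.8% lower and 20.4% higher. Against the shared DMSO libraries the list's median was -0.09 for TCDD and 1.31 for BPA. DDIT3, the pro-apoptotic factor CHOP, was at 11.4, 16.3, 11.7 and 15.7 CPM in TCDD and 75.8, 88.4, 66.1 and 47.4 CPM in BPA, with DMSO at 15.1 ± 2.36 CPM (log2 fold change -2.33 ± 0.22, adjusted p 6.87e-09). GDF15, a secreted stress cytokine, was at 609, 723, 591 and 561 CPM against 2995, 2705, 2439 and 1680 CPM (log2 fold change -1.98 ± 0.17, adjusted p 1.90e-09). CEBPG, a dimer partner of ATF4, was at 36.9, 52.5, 52.2 and 58.9 CPM against 138, 158, 164 and 139.7 CPM (log2 fold change -1.58 ± 0.16, adjusted p 2.04e-08). In all of these the BPA libraries lay above every TCDD library. As further examples, TRIB3, a pseudokinase induced by CHOP, was at 210.4 ± 51.6 against 890.3 ± 107 CPM, CEBPB, a partner of CHOP, at 91.6 ± 23.1 against 421 ± 38.4 CPM, and ATF4 itself at 499 ± 109.8 against 824 ± 79.4 CPM. The serine and one-carbon enzymes PSAT1 (-1.22), SHMT2 (-1.11) and MTHFD2 (-1.37) were lower as well, on the log2 scale. ATF3 (-0.63, 95% interval -1.24 to -0.03) and DDIT4 (-0.35, 95% interval -0.93 to 0.24) were the members not called.

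ASNS, asparagine synthetase, and CHAC1, a glutathione-degrading enzyme, had low levels here (1.1 ± 0.36 against 4.51 ± 1.32 CPM, and 0.104 ± 0.105 against 1.04 ± 0.304 CPM) with log2 fold changes of -2.03 ± 0.30 and -3.29 ± 0.65. ASNS overlaps another annotated gene on its own strand, and the authors' counting may have split its reads, so its level is uncertain. FGF21, a secreted hepatokine, was at 0.115 ± 0.0284 against 0.6 ± 0.112 CPM. The core of the element bound by C/EBP and ATF dimers, TGATGNAA on both strands, was in 5 of the 21 listed genes with a promoter window and in 3.67% of all windows and 1.82% of those of tested genes. Genes at least 2-fold lower in TCDD held it in 4.60% of windows and those at least 2-fold higher in 2.81%. The stretches of ASNS (chr7:97872443-97872502, minus strand), CHAC1 (chr15:40953236-40953295, plus strand) and FGF21 (chr19:48755444-48755503, plus strand) are shown with the core in capitals, because these were the listed genes that held it upstream of the start and were lower in TCDD.
ASNS: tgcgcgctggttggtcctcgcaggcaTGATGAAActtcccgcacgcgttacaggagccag
CHAC1: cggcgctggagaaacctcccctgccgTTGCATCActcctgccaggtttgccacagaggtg
FGF21: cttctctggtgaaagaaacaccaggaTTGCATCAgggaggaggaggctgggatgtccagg
In CHAC1 and FGF21 the match is on the other strand, so the capitals read as its reverse complement.

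Of 20 cytosolic aminoacyl-tRNA synthetases, the enzymes that load amino acids on tRNA, 15 were lower in TCDD and 0 higher, with a median of -0.851. SARS1 (seryl) was at 151, 179.5, 162 and 179.7 CPM in TCDD and 385, 427, 442 and 412 CPM in BPA, with DMSO at 172 CPM (log2 fold change -1.31 ± 0.12, adjusted p 3.84e-09). WARS1 (tryptophanyl) was at 68.1 ± 17.0 against 262 ± 38.5 CPM and MARS1 (methionyl) at 164 ± 22.3 against 460.3 ± 12.0 CPM. QARS1 and RARS1 had positive log2 fold changes of 0.27 and 0.20 and were not called, although scaling by the upper quartile called 2 members higher. Of 13 amino acid transporters 9 were lower in TCDD (69.2%, against 17.8% of all tested genes) and 2 higher (15.4%, against 20.4%). SLC38A3 (-1.77 ± 0.16), SLC1A5 (-1.09 ± 0.13) and SLC38A1 (-1.15 ± 0.14), carriers of glutamine and other neutral amino acids, had the smallest p among them. SLC7A5, given above, and SLC38A4 (2.44 ± 0.62), a placenta and liver carrier, were the higher ones.

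Of 20 ER chaperone and unfolded protein response genes, 14 were lower in TCDD and 0 higher, with a median of -0.583. Upper-quartile scaling, library size alone and leaving out BPA replicate 3 each gave 1 higher. ERN1, which encodes the ER stress sensor IRE1, was at 24.5, 23.3, 20.5 and 21.6 CPM in TCDD and 100.0, 121, 106 and 72.3 CPM in BPA, with DMSO at 28.6 ± 4.12 CPM (log2 fold change -2.15 ± 0.18, adjusted p 9.09e-10). DNAJB9, a co-chaperone of BiP, was at 22.8 ± 3.09 against 71.7 ± 9.01 CPM, and HYOU1, an ER nucleotide exchange chaperone, at 309 ± 80.3 against 907 ± 102 CPM with DMSO at 488 CPM. HSPA5, which encodes BiP, was at 1126 ± 163 against 2174 ± 146 CPM with DMSO at 1494 CPM, so TCDD lay below and BPA above the vehicle (log2 fold change -0.95 ± 0.13). The list's medians against DMSO were -0.33 for TCDD and 0.29 for BPA. The folding factors CALR (0.12, 95% interval -0.26 to 0.50), PDIA4 (-0.14, -0.43 to 0.15) and PDIA6 (-0.07, -0.34 to 0.19) were not called. Of 12 cytosolic heat shock genes 1 was higher and 1 lower (8.33% each), below the 20.4% and 17.8% of all tested genes. The list median of -0.0829 turned positive with upper-quartile scaling. The heat shock factor HSF1 was lower in TCDD (85.6 ± 7.6 against 137 ± 8.82 CPM, adjusted p 4.17e-06). The co-chaperone DNAJB1 was higher (log2 fold change 0.60 ± 0.22, adjusted p 0.0305), a call lost without TCDD replicate 1 or 2 or BPA replicate 2 or 3 (adjusted p 0.052 to 0.102).

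**Figure D4:**
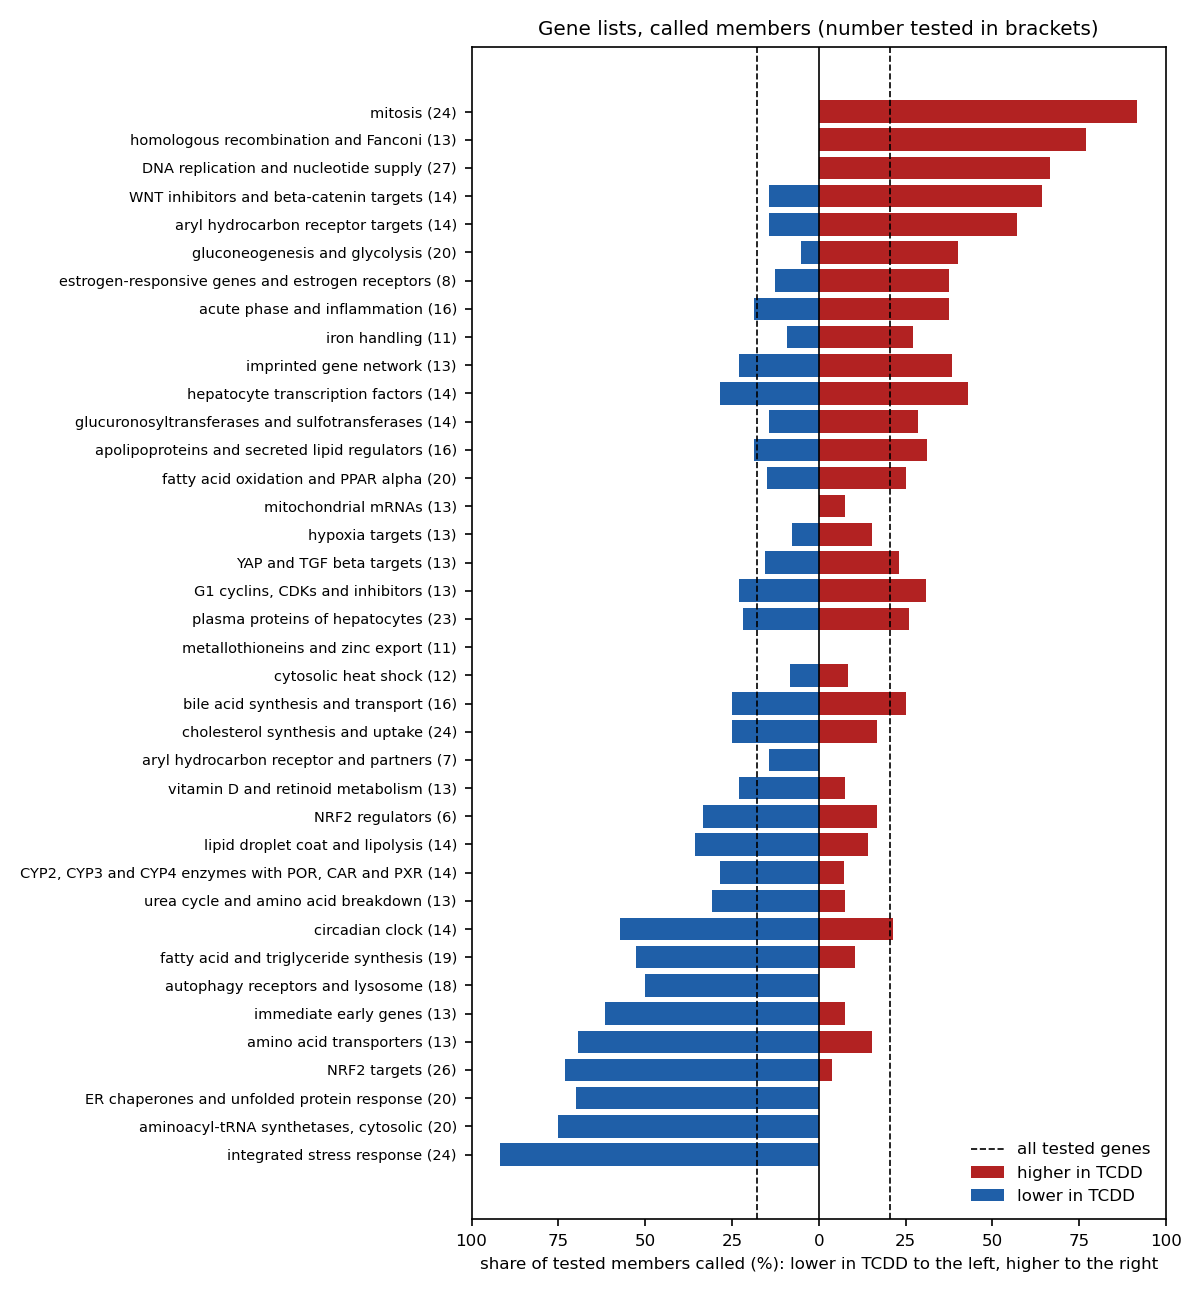
Share of the tested members of each gene list shown that was called lower in TCDD (bars to the left) and higher in TCDD (bars to the right), in percent, with the number tested in brackets and dashed lines at the shares of all tested genes (17.8% and 20.4%). The mitosis list lies at the top with 22 of 24 members higher and the integrated stress response at the bottom with 22 of 24 lower.

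NRF2 targets were lower in TCDD in 19 of 26 tested genes and higher in 1, with a median of -0.89. The list's medians against DMSO were 0.33 for TCDD and 1.16 for BPA, against all-gene medians of -0.0066 and -0.0233. GCLC, the catalytic subunit of the first enzyme of glutathione synthesis, was at 121, 81.2, 79.6 and 75.5 CPM in TCDD and 415, 662, 382 and 224 CPM in BPA, with DMSO at 72.0 ± 8.75 CPM (log2 fold change -2.23 ± 0.22, adjusted p 1.94e-08). ABCC3, an efflux pump for conjugates, was at 86.2, 105, 74.7 and 87.2 CPM against 239, 283, 216 and 217 CPM (log2 fold change -1.44 ± 0.18, adjusted p 7.39e-07). The BPA libraries were the high ones in both without overlap. As further examples, the cystine carrier SLC7A11 was at 53.04 ± 23.9 against 171 ± 24.6 CPM, thioredoxin reductase TXNRD1 at 252 ± 81.9 against 649 ± 268 CPM, and the aldo-keto reductases AKR1B10 and AKR1C1 at 89.0 ± 63.6 against 415 ± 178 CPM and 520.3 ± 241 against 1995 ± 582 CPM. AKR1C1 and AKR1C2 are near-identical copies, so the counting could split their reads. The ferritin chains FTH1 (2255 ± 262 against 5122 ± 563 CPM) and FTL (5878 ± 1613 against 12040 ± 1148 CPM) were the most abundant of the lower members.

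HMOX1, heme oxygenase, was the NRF2 target that went the other way. It was at 298, 298, 203 and 233 CPM in TCDD and 90.0, 99.2, 83.2 and 92.9 CPM in BPA, with DMSO at 83.4 ± 9.89 CPM, so the BPA libraries stood near the vehicle and the TCDD libraries above both (log2 fold change 1.497 ± 0.15, adjusted p 3.66e-08). Of the regulators, NFE2L2, which encodes NRF2, was higher in TCDD (230.0 ± 18.2 against 175 ± 22.4 CPM, DMSO 138, log2 fold change 0.39 ± 0.10, adjusted p 0.00248). BACH1, a repressor of HMOX1 and other NRF2 targets, was lower (30.0 ± 3.32 against 47.4 ± 3.83 CPM, DMSO 32.6, log2 fold change -0.66 ± 0.16, adjusted p 0.00209), and so was its dimer partner MAFK (45.6 ± 2.91 against 85.6 ± 9.81 CPM, log2 fold change -0.91 ± 0.11, adjusted p 3.61e-07). KEAP1, which holds NRF2 for degradation, was not called (-0.11, 95% interval -0.30 to 0.08).

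The core of the antioxidant response element, TGACNNNGC on both strands, was in 5 of 18 NRF2 targets with a window against 13.6% of all windows and 15.2% of the windows of tested genes. Genes at least 2-fold lower in TCDD held it in 15.5% of windows, near the share of all tested genes, and those at least 2-fold higher in 13.6%. The stretches of GCLM (chr1:93909431-93909490, minus strand, match on the other strand) and TXNRD1 (chr12:104215655-104215714, plus strand) are shown with the core in capitals, because both genes were lower in TCDD, and TXNRD1 has a further match on the other strand outside its stretch. GCLM, the modifier subunit beside GCLC, was at 49.9 ± 9.89 against 97.5 ± 38.9 CPM, and its groups overlapped.
GCLM: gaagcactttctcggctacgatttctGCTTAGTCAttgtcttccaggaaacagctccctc
TXNRD1: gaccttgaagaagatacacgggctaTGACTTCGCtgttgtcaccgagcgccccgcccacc

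Lysosome and autophagy genes followed the stress genes, with 9 of 18 lower in TCDD and 0 higher. CTSB, the lysosomal protease cathepsin B, was at 544, 748, 619.5 and 523 CPM in TCDD and 1798, 1766, 1904 and 1921 CPM in BPA, with DMSO at 482 ± 25.1 CPM (log2 fold change -1.60 ± 0.11, adjusted p 7.23e-11). MAP1LC3B, which marks autophagosome membranes, was at 117 ± 2.76 against 378 ± 94.7 CPM, and the autophagy receptor SQSTM1, also an NRF2 target, at 531 ± 128 against 1764 ± 494 CPM. NPC1, which exports cholesterol from lysosomes, was at 115 ± 6.57 against 248 ± 20.5 CPM. For none of these did the libraries of the 2 toxicants overlap, and DMSO lay nearer to TCDD.

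Proliferation genes lay on the TCDD side, with the vehicle beside TCDD. Of 24 tested mitosis genes, 22 were higher in TCDD and 0 lower (median 1.24). Of 27 DNA replication and nucleotide supply genes, 18 were higher and 0 lower (median 1.09), and of 13 homologous recombination and Fanconi genes 10 were higher and 0 lower (median 1.26). The medians of these lists against DMSO were -0.10, -0.21 and -0.14 for TCDD, and -1.36, -1.27 and -1.35 for BPA. Fewer dividing cells and less RNA of these genes per cell cannot be told apart in bulk samples.

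TOP2A, the topoisomerase that untangles chromosomes, was at 224, 185, 392 and 378 CPM in TCDD and 67.9, 52.5, 47.2 and 95.7 CPM in BPA, with DMSO at 294 ± 102 CPM (log2 fold change 2.16 ± 0.32, adjusted p 8.40e-06). KIF20A, a kinesin of cytokinesis, was at 55.7, 36.5, 60.9 and 69.0 CPM against 13.8, 10.2, 12.8 and 17.9 CPM (log2 fold change 2.02 ± 0.28, adjusted p 3.56e-06), and CENPE, a kinetochore motor, at 23.3 ± 5.31 against 9.8 ± 1.59 CPM (log2 fold change 1.24 ± 0.18). RRM2, the subunit of ribonucleotide reductase that limits dNTP supply in S phase, was at 128, 79.9, 145 and 147 CPM against 33.5, 22.6, 20.8 and 37.3 CPM, with DMSO at 149.7 ± 65.1 CPM (log2 fold change 2.13 ± 0.33, adjusted p 1.63e-05). TYMS, thymidylate synthase, followed it with a log2 fold change of 1.22 ± 0.22. FANCI (1.54 ± 0.29), RAD51AP1 (1.57 ± 0.31) and BRIP1 (1.59 ± 0.36), which act in crosslink repair and recombination, were the repair genes with the smallest p. The members not called had positive log2 fold changes too, except PALB2 (-0.04, 95% interval -0.28 to 0.19), with CDC6 (0.38, -0.61 to 1.37) and E2F1 (0.47, -0.13 to 1.08) among them.

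The cell cycle genes homology region, TTTGAA on both strands, was in 13 of the 19 mitosis genes with a window (68.4%), against 15.4% of all windows and 10.0% of the windows of tested genes. It was in 18.5% of the windows of genes at least 2-fold higher in TCDD, a set that includes mitosis genes, and 7.16% of those at least 2-fold lower. At larger differences the order was reversed, with 9 of 73 windows (12.3%) at least 16-fold higher and 6 of 29 (20.7%) at least 8-fold lower. The stretches of TOP2A (chr17:40418015-40418074, minus strand), KIF11 (chr10:92593070-92593129, plus strand) and MKI67 (chr10:128126424-128126483, minus strand) are shown with each match in capitals, as examples of mitosis genes higher in TCDD. The matches shown in TOP2A and KIF11 are on the other strand. MKI67 and TOP2A each have 2, and the TOP2A match not shown lies outside the stretch, on the gene's strand.
TOP2A: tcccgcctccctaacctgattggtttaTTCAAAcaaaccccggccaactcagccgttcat
KIF11: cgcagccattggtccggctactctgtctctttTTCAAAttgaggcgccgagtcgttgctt
MKI67: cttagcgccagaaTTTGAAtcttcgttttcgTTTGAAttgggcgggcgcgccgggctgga
KIF11, the spindle motor, was at 38.5 ± 13.5 against 11.6 ± 2.81 CPM, and MKI67, which encodes the proliferation antigen Ki-67, at 127 ± 45.5 against 40.3 ± 11.8 CPM.

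Of 13 regulators of G1, 4 were higher in TCDD (30.8%) and 3 lower (23.1%), against 20.4% and 17.8% of all tested genes. CDKN2B, the CDK4/6 inhibitor p15, was at 2.39, 1.23, 1.19 and 1.09 CPM in TCDD and 20.2, 28.6, 10.8 and 7.81 CPM in BPA, with DMSO at 3.81 ± 0.642 CPM, so the BPA libraries stood far above both (log2 fold change -3.51 ± 0.35, adjusted p 2.46e-08). CDKN2B-AS1 overlaps it on the other strand. MYC was lower in TCDD (157 ± 14.7 against 281 ± 20.3 CPM, adjusted p 4.53e-08). CDK6 (195 ± 28.3 against 90.7 ± 9.19 CPM, adjusted p 1.44e-05) and, as further examples, CCND1 (0.82 ± 0.23) and CDKN2C (1.71 ± 0.35) were higher. CDKN1A, which encodes p21, was not called (234 ± 69.8 against 259.7 ± 75.2 CPM, 95% interval -0.70 to 0.40). DDB2, a DNA damage sensor, was higher (60.5 ± 9.43 against 16.8 ± 2.63 CPM, DMSO 47.3, log2 fold change 1.84 ± 0.14, adjusted p 3.43e-10). TNFRSF10B, the death receptor DR5, was lower (229 ± 24.0 against 511 ± 55.8 CPM, DMSO 280, log2 fold change -1.16 ± 0.14, adjusted p 5.42e-07). BTG2, an antiproliferative gene, was higher (34.0 ± 7.58 against 17.9 ± 2.51 CPM, DMSO 42.7, adjusted p 0.00259).

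**Figure D5:**
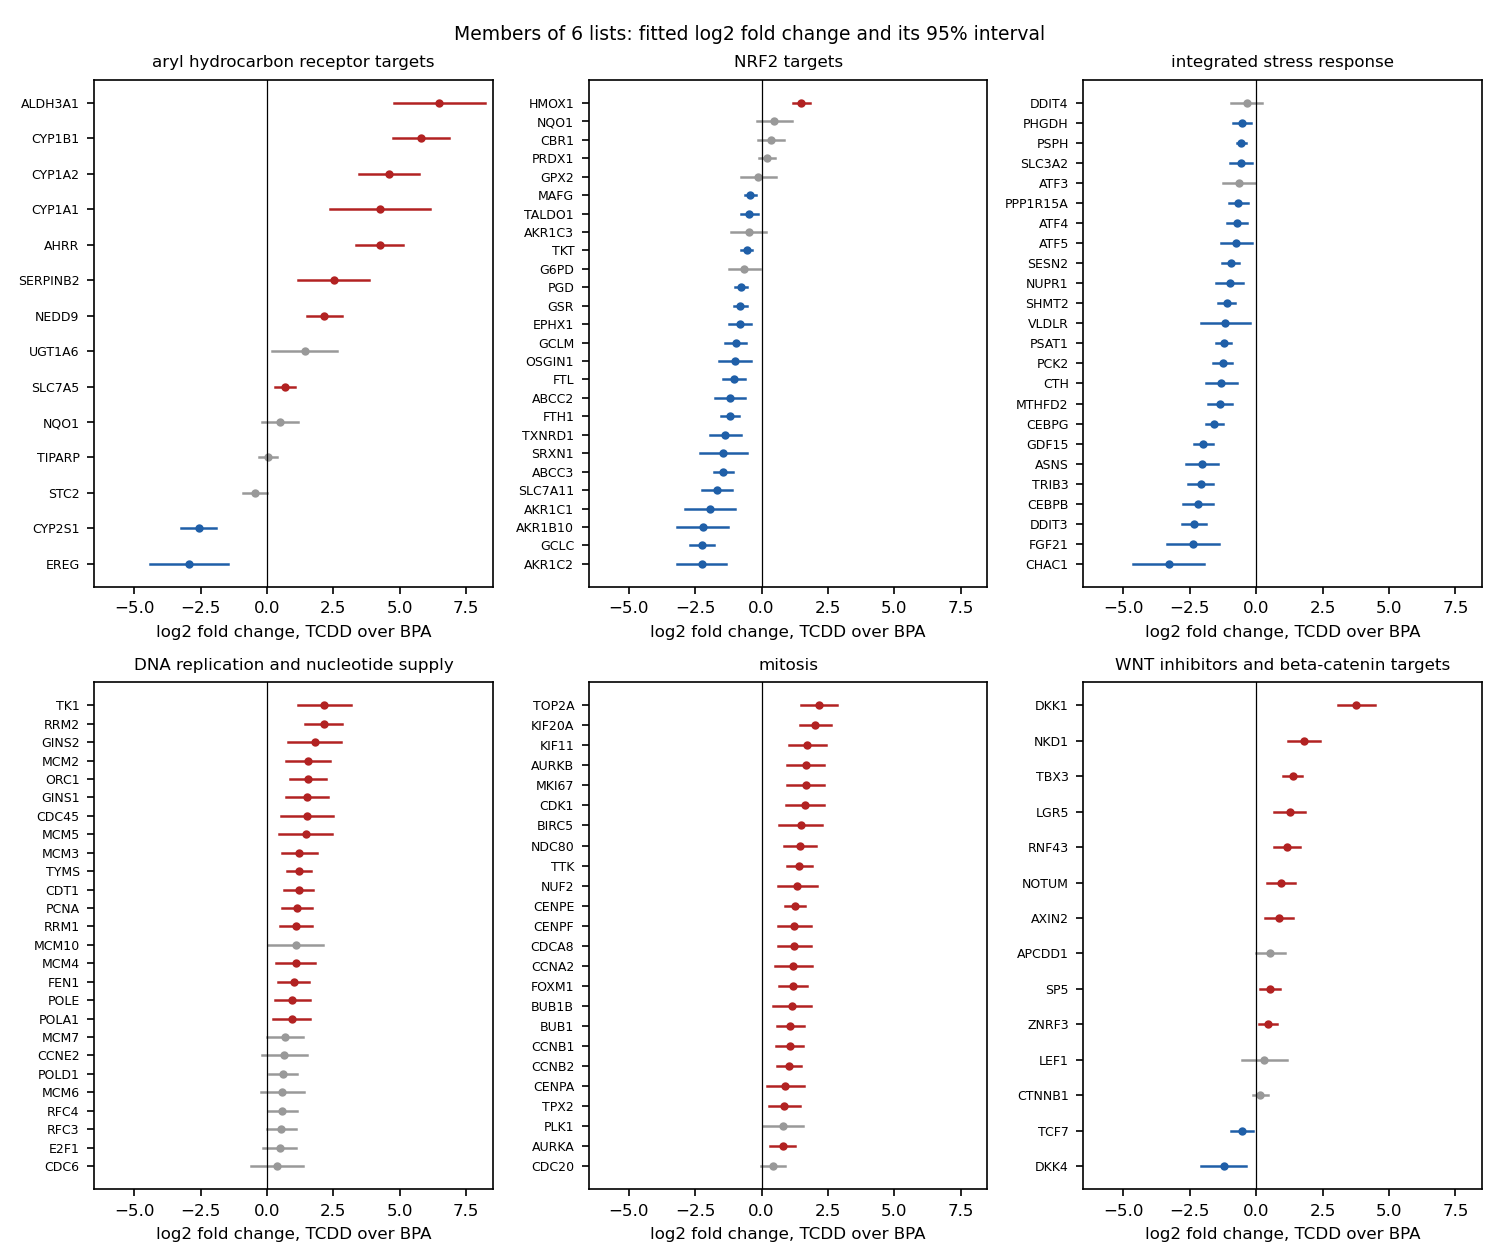
Fitted log2 fold change of TCDD over BPA (points) and its 95% interval (lines) for the tested members of 6 lists, less 1 of the replication list, in red where called higher in TCDD, in blue where called lower and in grey where not called. The 22 called members of the integrated stress response lie left of 0 and the 22 called members of the mitosis list right of 0.

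WNT inhibitors and beta-catenin targets were higher in TCDD in 9 of 14 genes and lower in 2, with a median of 0.698. DKK1, a secreted WNT antagonist, was at 133, 93.1, 136 and 121 CPM in TCDD and 6.9, 3.4, 8.91 and 16.0 CPM in BPA, with DMSO at 215 ± 27.5 CPM, so both toxicants lay below the vehicle and BPA by more (log2 fold change 3.78 ± 0.34, adjusted p 3.70e-09). NKD1, a feedback inhibitor, was at 568 ± 78.0 against 163 ± 33.7 CPM with DMSO at 293 CPM between them. TBX3, a T-box factor downstream of beta-catenin, was at 188 ± 17.2 against 72.5 ± 8.2 CPM with DMSO at 59.2 CPM near BPA. The lower members were DKK4 (-1.23, adjusted p 0.019) and TCF7 (-0.54, adjusted p 0.0358), and neither was called without TCDD replicate 2, TCDD replicate 3 or BPA replicate 2. HepG2 cells carry an activating deletion in CTNNB1, the beta-catenin gene, whose own transcript was not called (0.16, 95% interval -0.11 to 0.44).

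Of 13 immediate early genes, which growth factors and stress induce within minutes, 8 were lower in TCDD and 1 higher. EGR1 was at 10.1, 8.17, 8.9 and 7.81 CPM in TCDD and 96.4, 81.0, 85.2 and 50.6 CPM in BPA, with DMSO at 33.6 ± 13.3 CPM between them (log2 fold change -3.16 ± 0.30, adjusted p 8.35e-09). EGR2 was also lower (0.0488 ± 0.0329 against 0.317 ± 0.0626 CPM, adjusted p 9.64e-05), with TCDD near the level of 3 counts per library, and JUN, as a further example, was at 59.7 ± 8.78 against 124 ± 29.2 CPM. FOSB was the higher one (2.6 ± 0.802 against 0.877 ± 0.2 CPM, log2 fold change 1.58 ± 0.23, adjusted p 4.81e-06). Among targets of TGF-beta and YAP, SMAD7 (1.19 ± 0.20) and CCN1 (1.03 ± 0.28) were higher in TCDD and SKIL (-0.55 ± 0.16) lower, in a list with 3 of 13 higher (23.1%), 2 lower (15.4%, both near the shares of all tested genes) and a median that changed sign with RLE scaling.

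Hepatocyte transcription factors divided, with 6 of 14 higher in TCDD (42.9%) and 4 lower (28.6%), against 20.4% and 17.8% of all tested genes. GATA6, a zinc-finger factor of liver specification, was at 15.6, 16.0, 15.7 and 15.6 CPM against 3.66, 2.9, 2.75 and 4.61 CPM, with DMSO at 7.51 CPM (log2 fold change 2.17 ± 0.20, adjusted p 6.00e-09). CEBPA, a factor of mature hepatocytes, went the other way, at 28.8, 32.6, 35.6 and 46.3 CPM in TCDD and 137, 159.6, 135 and 174 CPM in BPA with DMSO at 83.7 ± 11.3 CPM, between them (log2 fold change -2.08 ± 0.17, adjusted p 8.11e-10). As a further example, ONECUT2 was lower in TCDD (15.3 ± 1.96 against 62.9 ± 7.79 CPM). HNF4A, FOXA1 and FOXA2 were not called, with log2 fold changes of -0.27, 0.22 and -0.07. The biliary and progenitor markers KRT19 (408 ± 39.3 against 267 ± 47.6 CPM) and EPCAM (179 ± 12.1 against 122 ± 8.07 CPM) were higher in TCDD, and the 4 tested markers summed to 739 to 826 CPM in TCDD and 514 to 562 CPM in BPA, while DMSO lay at 819 to 961 CPM.

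Of 19 genes of fatty acid and triglyceride synthesis, 10 were lower in TCDD (52.6%, against 17.8% of all tested genes) and 2 higher (10.5%, against 20.4%), the latter 1 without TCDD replicate 1 or BPA replicate 2. LPIN2 (62.0 ± 2.02 against 134 ± 8.59 CPM) and LPIN1 (25.2 ± 2.17 against 53.02 ± 13.0 CPM), phosphatidate phosphatases, and SREBF1 (98.3 ± 19.2 against 181 ± 13.5 CPM), the master factor of lipogenesis, had the smallest p. As a further example, AGPAT2, an acyltransferase of the same pathway, was at 45.6, 164, 103 and 88.8 CPM in TCDD and 7.36, 8.34, 10.8 and 14.1 CPM in BPA, with DMSO at 9.27 CPM, so TCDD alone was high (log2 fold change 3.31 ± 0.61, adjusted p 0.000138). FASN, fatty acid synthase, averaged 1549 ± 452 CPM in TCDD against 2631 ± 392 CPM in BPA and 2605 CPM in DMSO, so here TCDD was the low group (adjusted p 0.0132). On the droplet, PLIN4, a coat protein, was lower in TCDD (12.0 ± 3.62 against 33.7 ± 5.34 CPM, adjusted p 0.000569), as were G0S2, a lipase inhibitor (0.0714 ± 0.0315 against 0.576 ± 0.193 CPM, adjusted p 9.99e-05), and ABHD5, the lipase coactivator (-0.55, adjusted p 0.00539). For G0S2 the TCDD mean was near the level of 3 counts per library. In the lipid droplet list 5 of 14 were lower (35.7%) and 2 higher (14.3%), against 17.8% and 20.4% of all tested genes. The higher ones numbered 0 without TCDD replicate 1 or BPA replicate 2. The list median of -0.107 turned positive with upper-quartile scaling.

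In fatty acid oxidation 5 of 20 were higher in TCDD (25.0%) and 3 lower (15.0%), shares near the 20.4% and 17.8% of all tested genes, so the single genes are given as such and not as a result on the list. HADH, a dehydrogenase of beta-oxidation, was at 106, 114, 91.8 and 86.1 CPM in TCDD and 27.6, 26.6, 29.9 and 34.7 CPM in BPA, with DMSO at 49.4 CPM between them (log2 fold change 1.74 ± 0.14, adjusted p 7.02e-10). PPARGC1A, the coactivator of mitochondrial genes, was lower (15.3 ± 1.23 against 56.0 ± 7.68 CPM, DMSO 16.4, log2 fold change -1.88 ± 0.16, adjusted p 1.94e-09), and so was ACSL1, which activates fatty acids (38.7 ± 6.6 against 109 ± 19.4 CPM). FABP1, the liver fatty acid binding protein, was higher (2608 ± 1244 against 765 ± 324 CPM, adjusted p 0.00317). ANGPTL8, a hepatokine that restrains lipoprotein lipase, was at 16.9, 19.1, 16.5 and 19.9 CPM in TCDD and 104, 115, 165 and 165 CPM in BPA, with DMSO at 104 CPM, so TCDD was the low group (log2 fold change -2.92 ± 0.52, adjusted p 9.18e-05). APOA2 (1808 ± 317 against 4001 ± 441 CPM) and the lipase LIPG (20.3 ± 2.87 against 34.5 ± 4.49 CPM) were lower in TCDD too. Of the 16 apolipoproteins and secreted regulators 5 were higher (31.2%) and 3 lower (18.8%), the former 3 without TCDD replicate 2 and 2 without BPA replicate 1 or 2.

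Cholesterol genes gave 4 higher and 6 lower of 24 (16.7% and 25.0%, near the shares of all tested genes), with a median of -0.0392 that turned positive with upper-quartile scaling and library size alone. Both of those settings left 3 lower, and 2 stayed higher without TCDD replicate 4 or BPA replicate 1 or 3. INSIG1, a brake on SREBP processing, was lower in TCDD (0.137 ± 0.0273 against 0.616 ± 0.119 CPM, DMSO 0.358, adjusted p 0.000252). Its level was low in each of these groups, and the TCDD level rests on few counts per library. HSD17B7, an enzyme of cholesterol synthesis, was higher (48.6 ± 2.54 against 33.2 ± 4.6 CPM, adjusted p 0.000502), with both toxicant means below the DMSO mean of 60.9 CPM.

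The bile acid list held 4 higher and 4 lower of 16 (25.0% each, also near those shares), the former 2 without TCDD replicate 1 or BPA replicate 1 or 2. NR1H4, the bile acid receptor FXR, was at 6.74, 10.6, 14.1 and 13.9 CPM in TCDD and 51.0, 52.5, 51.0 and 52.3 CPM in BPA (log2 fold change -2.19 ± 0.20, adjusted p 5.74e-09). NR0B2, the repressor SHP that FXR induces, was at 46.8, 34.8, 37.5 and 27.5 CPM against 193, 142, 157 and 214 CPM, with DMSO at 112 CPM (log2 fold change -2.27 ± 0.19, adjusted p 1.44e-09). With SLC51B, an FXR-induced exporter given above, these were the bile acid genes with the smallest p, and the BPA libraries were the high ones in each. Among drug-metabolising enzymes outside the CYP1 family, CYP4F3 (12.3 ± 2.27 against 40.9 ± 4.17 CPM) and CYP3A7 (0.721 ± 0.334 against 2.47 ± 0.709 CPM) were lower in TCDD and CYP2E1 (0.446 ± 0.184 against 0.0439 ± 0.0181 CPM) higher. The BPA mean of CYP2E1 lay under the level of 3 counts per library. In the list of these enzymes 1 of 14 was higher (7.14%) and 4 lower (28.6%), against 20.4% and 17.8% of all tested genes. The lower ones numbered 2 without TCDD replicate 4 or BPA replicate 2. Of the conjugating enzymes 4 of 14 were higher (28.6%) and 2 lower (14.3%), against 20.4% and 17.8% of all tested genes. UGT2B10 was higher (133 ± 36.8 against 47.3 ± 24.5 CPM, DMSO 270.9), with both toxicant means below the vehicle mean. SULT1C2 (20.5 ± 1.5 against 42.1 ± 5.34 CPM, DMSO 23.3) and UGT2B4 (1.37 ± 0.589 against 6.45 ± 1.83 CPM, DMSO 6.8) were lower. The vehicle lay near TCDD for SULT1C2 and near BPA for UGT2B4. In vitamin D and retinoid metabolism, besides CYP24A1, the retinoic acid receptor RARA was lower in TCDD (27.7 ± 0.968 against 44.6 ± 1.62 CPM) and its partner RXRA higher (237 ± 36.7 against 132 ± 23.7 CPM, adjusted p 1.65e-05).

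Among acute phase and inflammatory genes 6 of 16 were higher in TCDD (37.5%) and 3 lower (18.8%), against 20.4% and 17.8% of all tested genes. HAMP, which encodes the iron hormone hepcidin, was at 47.2, 50.9, 35.2 and 37.5 CPM in TCDD and 6.25, 5.63, 3.64 and 3.78 CPM in BPA, with DMSO at 1.34 ± 0.609 CPM (log2 fold change 3.14 ± 0.36, adjusted p 2.42e-07). ID1, which like HAMP responds to BMP signals, was higher as well (197 ± 24.0 against 95.8 ± 5.75 CPM, adjusted p 0.00214). BIRC3, an NF-kappaB-induced inhibitor of apoptosis, was at 12.3, 17.6, 16.4 and 12.0 CPM against 0.998, 1.15, 0.828 and 0.971 CPM, with DMSO at 4.2 CPM between them (log2 fold change 3.87 ± 0.41, adjusted p 4.72e-08). NFKBIA, the NF-kappaB inhibitor, was at 128 ± 9.75 against 50.5 ± 3.18 CPM (adjusted p 2.62e-07). The TCDD libraries were the high ones for HAMP, BIRC3 and NFKBIA. In iron handling, the exporter SLC40A1 was lower in TCDD (27.5 ± 4.61 against 48.6 ± 14.2 CPM) and HFE, which feeds the hepcidin signal, higher (7.56 ± 0.868 against 4.28 ± 0.89 CPM).

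Among estrogen-responsive genes and receptors, ESR1 had at most 4 counts and ESR2 at most 1 in any library of either group and neither was tested. Of 8 tested genes 3 were higher in TCDD (37.5%) and 1 lower (12.5%), against 20.4% and 17.8% of all tested genes. IGFBP4, a binding protein of insulin-like growth factors, was at 254, 399, 300.0 and 264 CPM in TCDD and 90.3, 80.9, 88.7 and 120.2 CPM in BPA, with DMSO at 88.2 CPM (log2 fold change 1.68 ± 0.22, adjusted p 1.57e-06). GPER1, a membrane receptor linked to estrogens, was higher too (52.4 ± 5.31 against 21.2 ± 4.98 CPM, adjusted p 3.39e-08), and ESRRA, an orphan receptor of mitochondrial genes, lower (83.2 ± 20.5 against 146 ± 19.6 CPM, adjusted p 0.000576).

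The series is about the imprinted gene network, the set of parent-of-origin-expressed growth genes that PLAGL1 is known to regulate. PLAGL1 (chr6:143940300-144064599 on GRCh38, minus strand) was at 1.35, 2.16, 2.41 and 1.93 CPM in TCDD and 1.82, 2.25, 1.66 and 1.98 CPM in BPA, with DMSO at 1.47 ± 0.268 CPM. The groups overlapped, and the log2 fold change was 0.02 ± 0.24 with a 95% interval of -0.46 to 0.51 (adjusted p 0.954). IGF2, the fetal growth factor, was not called either (2813 ± 1244 against 2282 ± 1745 CPM, 95% interval -0.87 to 1.47, adjusted p 0.703). H19 had at most 16 counts and CDKN1C at most 3 in any of the 8 libraries, and neither was tested. Of 13 tested members, 5 were higher in TCDD (38.5%) and 3 lower (23.1%), against 20.4% and 17.8% of all tested genes. The higher ones numbered 3 without BPA replicate 1 and 2 without BPA replicate 2. The list median was 0.0505, near the 0.0543 over all tested genes. KCNQ1OT1, the noncoding RNA of the 11p15 imprinted domain, was at 57.3, 59.7, 59.9 and 68.5 CPM in TCDD and 22.8, 13.0, 14.7 and 13.3 CPM in BPA, with DMSO at 30.6 CPM between them (log2 fold change 1.94 ± 0.20, adjusted p 4.72e-08). It lies on the strand opposite to KCNQ1. GRB10, an adaptor that restrains insulin signalling, was at 17.1, 14.9, 17.4 and 18.2 CPM against 55.4, 66.2, 43.6 and 37.7 CPM, with DMSO at 21.1 CPM (log2 fold change -1.59 ± 0.14, adjusted p 2.47e-09), and IGF2R, which clears IGF2, at 506 ± 99.1 against 946 ± 47.7 CPM (log2 fold change -0.90 ± 0.21, adjusted p 0.00165). As a further example, PEG10, a retrotransposon-derived gene, was at 1141 ± 174 against 634 ± 301 CPM, both under the DMSO mean of 3092 CPM.

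Some transcripts were held to a narrow interval. The log2 fold change had a 95% interval within -0.5 and 0.5 for 3236 genes (17.2%), 3103 of them not called. The most abundant were EEF1A1, MT-CO1, GPC3, HSP90AB1, ACTB and P4HB. EEF1A1, the translation elongation factor, had an interval of -0.36 to 0.37, MT-CO1, a mitochondrial cytochrome oxidase subunit, -0.45 to 0.46, and ACTB, beta-actin, -0.21 to 0.35. GPC3, an oncofetal proteoglycan of hepatoma, had -0.44 to 0.27, HSP90AB1, a chaperone of unliganded AHR, -0.16 to 0.36, and P4HB, a disulfide isomerase of the ER, -0.25 to 0.20. In all, 11631 genes were not called, and for those with wider intervals a difference was not detectable with 4 libraries a group, which does not show that the levels were alike.

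Other genes, chosen after their values were seen, were not called between the toxicants while both toxicant means lay away from the vehicle mean. CPT1A, which admits fatty acids to mitochondria, was at 141, 132, 123 and 125 CPM in TCDD and 119, 148, 130.1 and 145 CPM in BPA, against 29.1 ± 1.25 CPM in DMSO (TCDD over BPA -0.06, 95% interval -0.40 to 0.28). MT2A, the main metallothionein, was at 202 ± 83.8 and 287 ± 112 CPM against 28.1 CPM, and its TCDD over BPA interval of -1.48 to 0.46 was wide and does not show like levels, while 0 of 11 genes of that list were called. FDFT1, squalene synthase, was at 525 ± 59.0 and 514 ± 81.8 CPM against 842 CPM (95% interval -0.30 to 0.36), so both toxicants averaged below the vehicle. DGAT2, the last acyltransferase of triglyceride synthesis, was at 49.2 ± 7.95 and 50.1 ± 7.33 CPM against 87.4 CPM (95% interval -0.30 to 0.25). Both contrasts with DMSO share the same 4 vehicle libraries.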

How the data were processed

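Poly(A) RNA of HepG2 cells was sequenced from 4 independent experiments per group, per the labels' protocols. The authors deposited a table of raw counts per Ensembl gene. The submitters' processing notes name fastp, STAR, HTSeq, DESeq2 and GRCh38, but state neither annotation release nor strand setting (not given in the sources used here). In that table a final row with no line end was left out, which kept 63139 genes. A table of gene names gave symbols for 62541 of 63140 identifiers, and GENCODE 29 gave positions for 58126.

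Counts of all 28 libraries were filtered (filterByExpr, minimum count 10, 18849 genes holding 99.96% of counts), scaled by TMM and fitted with 7 group means and quasi-likelihood F tests in edgeR 4.0.16 (R 4.3.3), with 21 residual degrees of freedom. The SE is the log2 fold change divided by the root of F. The alternatives were RLE, upper-quartile and library-size scaling, no filter, DESeq2 1.42.0, a fit of the 8 libraries, a replicate block and each library left out. The pipeline was tested on simulated data. Replicates are separate experiments per the labels, and no pair of libraries agreed within sampling noise.

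Genes named are the 12 largest called differences per direction (at least 5 CPM in a group, groups not overlapping), from every list with 2 or more calls the 3 called members of smallest p, PLAGL1, H19, IGF2, CDKN1C, AHR, NFE2L2 and ESR1, and the 6 most abundant genes with an interval within -0.5 and 0.5. Others are given as examples. Some genes of these rules, and 1 list, are not reported here. The comparison, the 42 gene lists (632 of 691 entries tested) and the motifs were chosen with earlier results of these data known, so list counts are descriptions.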

Additional observations from a re-analysis of the deposited data

Results flagged for a closer look

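The 138 genes named by the rules above and reported here give 276 groups of 4 libraries. In 15 of them a single library stood away from the other 3 by more than Dixon's 95% critical value, where chance alone marks about 1 in 20 groups. Of the 15 values, 7 are from TCDD replicate 1. In that library CCDC141 was at 11.8 CPM (the other TCDD libraries 4.29 to 5.02), RIPOR3 at 27.8 (3.28 to 4.74), ALPL at 17.6 (5.98 to 7.8), GCLC at 121 (75.5 to 81.2), BACH1 at 35.0 (27.9 to 28.8), CDKN2B at 2.39 (1.08 to 1.23) and OSCAR at 0.855 (2.45 to 2.74).

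In the other TCDD libraries, MYADML2 was at 16.2 CPM in replicate 2 (the others 10.6 to 11.5) and EGR2 at 0 in replicate 3 (0.0597 to 0.0708). Among the BPA libraries, HYOU1 was at 1060 CPM (852 to 865) in replicate 2, KCNQ1OT1 at 22.8 (13 to 14.7) in replicate 1, PLIN4 at 41.6 (30.3 to 31.9) in replicate 3, and NFKBIA at 55.2 (48.4 to 49.3) in replicate 4. SLC6A19 at 0.144 CPM in BPA replicate 4 (0.0331 to 0.046) and CCDC141 at 0.023 in BPA replicate 2 (0 in the others) rest on few counts.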

How the results depend on the processing

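The counts of calls stayed within 1.5 times the reported ones under all alternatives tried. No called gene named by the rules above changed sign, and no gene called both here and in an alternative had opposite signs. Calls numbered 3821 higher and 3404 lower with RLE scaling, 4859 and 2434 with upper-quartile scaling, 4494 and 2582 with library size alone, 3758 and 2918 with no filter on low counts, 3989 and 3627 with DESeq2, and 3870 and 3803 with only the 8 libraries in the fit. Adding a replicate block gave 4629 higher and 4057 lower. Correlations of equal-numbered TCDD and BPA deviations were 0.166, -0.245, 0.110 and 0.117, and those of unequal numbers ran from -0.185 to 0.246. Such weak correlations over all genes cannot show whether the numbers pair the samples, which were treated as unpaired. Leaving out each of the 8 libraries in turn gave 3243 to 3594 higher and 2875 to 3251 lower, and 81.8 to 88.3% of the reported calls were kept. An alternative chosen after seeing the data, without TBTCl replicate 4, gave 4293 and 4086. Among genes named by the rules above, DNAJB1, CA9, VEGFA and PECAM1 lost their calls in 16 of their settings. Genes given as examples, such as DKK4 and TCF7, are outside this count. Medians of 7 lists (AHR and partners, heat shock, cholesterol, lipid droplet, vitamin D and retinoid, metallothionein, YAP and TGF-beta) changed sign or reached 0 between scalings. Depth limits genes near 3 counts per library.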

Other observations

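Clock genes were lower in TCDD than in BPA in 8 of 14 cases (57.1%, against 17.8% of all tested genes). They were higher in 3 (21.4%, near the 20.4% of all tested genes), or in 1 without TCDD replicate 2. CRY1, a repressor of the clock, was at 17.7, 11.7, 14.7 and 16.0 CPM in TCDD and 35.1, 34.2, 30.2 and 28.8 CPM in BPA, with DMSO at 20.8 ± 1.59 CPM (log2 fold change -1.09 ± 0.14, adjusted p 8.36e-07). NR1D1, the nuclear receptor that represses BMAL1, was at 12.7 ± 3.63 against 27.4 ± 2.07 CPM (log2 fold change -1.11 ± 0.18, adjusted p 2.30e-05), and HLF, an output factor, at 154 ± 21.2 against 254 ± 40.0 CPM. BMAL1 itself was higher in TCDD (4.52 ± 0.606 against 3.01 ± 0.411 CPM, DMSO 6.43, adjusted p 0.0101).

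Genes of glycolysis and gluconeogenesis had 8 of 20 higher in TCDD (40%, all tested genes 20.4%) and 1 lower (5%, all tested genes 17.8%). The former numbered 4 without BPA replicate 2 and 5 without BPA replicate 1 or TCDD replicate 3 or 4, and the latter 0 without TCDD replicate 1 or 2 or BPA replicate 1, 3 or 4. FBP1, a gluconeogenic phosphatase, was at 1.36 ± 0.305 against 0.323 ± 0.139 CPM, PC, pyruvate carboxylase, at 303 ± 25.3 against 225 ± 33.5 CPM with DMSO at 105 CPM, and PFKL, the liver phosphofructokinase, at 409 ± 47.4 against 282 ± 39.6 CPM. Hypoxia targets had 2 of 13 higher (15.4%), or 1 to 4 with a library left out, and 1 lower (7.69%), or 0 to 1. Both shares lay below the 20.4% and 17.8% of all tested genes. ADM, the peptide adrenomedullin, was higher (29.1 ± 3.97 against 12.0 ± 2.09 CPM, adjusted p 0.0117). CA9, a carbonic anhydrase, was at 2.43, 16.7, 27.6 and 24.4 CPM in TCDD and 0.0665, 0.161, 2.25 and 3.2 CPM in BPA (log2 fold change 3.65 ± 1.27, adjusted p 0.0251), a call lost without TCDD replicate 3 (adjusted p 0.0525), BPA replicate 1 (0.07) or BPA replicate 2 (0.0741). VEGFA was lower (-0.65, adjusted p 0.035), a call lost without any one of TCDD replicates 1, 3 and 4 and BPA replicates 1 to 3 (adjusted p 0.0512 to 0.116) and under upper-quartile scaling (0.0929) and library size alone (0.0541).

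Of 23 plasma protein genes, 6 were higher in TCDD (26.1%) and 5 lower (21.7%), near the 20.4% and 17.8% of all tested genes. The former numbered 1 without TCDD replicate 2 and 3 without BPA replicate 2, and the latter 3 without TCDD replicate 1 or BPA replicate 4. SERPINC1, antithrombin, was at 178, 166, 139.8 and 133 CPM in TCDD and 336, 403, 364 and 375 CPM in BPA, with DMSO at 169.8 CPM (log2 fold change -1.26 ± 0.13, adjusted p 6.06e-08), and RBP4, the retinol carrier, at 660.0 ± 115 against 1024 ± 167 CPM. ITIH4 was higher in TCDD (0.426 ± 0.139 against 0.0107 ± 0.0124 CPM, adjusted p 3.70e-07), at a level that is uncertain because other annotated genes overlap it on both strands. ALB, albumin, was not called (8259 ± 2597 against 8209 ± 2488 CPM, 95% interval -0.69 to 0.71). Against 20.4% and 17.8% of all tested genes, 1 of 13 in the urea cycle and amino acid list was higher (7.69%) and 4 lower (30.8%). The former numbered 2 without TCDD replicate 2 and the latter 2 without TCDD replicate 3 or 4. OTC, ornithine transcarbamylase, was the higher one (1.2 ± 0.893 against 0.175 ± 0.093 CPM, adjusted p 0.000296) and ASL, argininosuccinate lyase, a lower one (47.0 ± 3.86 against 68.0 ± 6.11 CPM, adjusted p 0.000122). Of the 13 mitochondrial mRNAs, MT-ND3 was the member called higher in TCDD (adjusted p 0.016), with 0 called without TCDD replicate 3 and 3 without BPA replicate 1.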
